A study of Mus musculus with 8 samples.

Results

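Adrenergic receptors and the adenylyl cyclases of heart muscle were followed in the left ventricle of mice with raised cardiac miR-100, a microRNA, and of wild type mice. The genes asked for were 3 alpha1 receptors (Adra1a, Adra1b, Adra1d), 2 alpha2 receptors (Adra2a, Adra2c), 2 beta receptors (Adrb1, Adrb3) and the cyclases Adcy5 and Adcy6, and a gene was taken when the platform annotation gave its symbol to a row of the deposited table. The annotation named a row for 4 of these 9 genes, namely Adra1b, Adra2c, Adcy5 and Adcy6, each with 1 row among the 22206 rows of the table. Adra1a, Adra1d, Adra2a, Adrb1 and Adrb3 were not analysed here, so no value below describes a beta receptor. Rows were matched by symbol alone, and the genes were picked with earlier results of these data known.

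The study compared 4 wild type mice with 4 mice whose label reads cardiac-specific microRNA-100 overexpression, with 1 array for each mouse. All 8 mice were untreated males of strain C57/BL6J, aged 8 weeks, and total RNA came from the left ventricle. The sources used here did not give the promoter that drives the overexpression, the number of transgenic lines or the litters. The p-values therefore measure the spread between these 8 arrays, which may in part be technical. Values are log2 signals per row, where a row is a group of probes against 1 transcribed region, and a difference of 1 is a doubling of signal.

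Noradrenaline and adrenaline act on the heart through these receptors. The beta1 receptor (Adrb1) couples to the stimulatory G protein, which activates adenylyl cyclase. The cyclic AMP formed switches on protein kinase A and with it a faster and stronger beat. Alpha2 receptors couple to the inhibitory G protein and restrain noradrenaline release from sympathetic nerve endings, while alpha1 receptors couple to Gq, phospholipase C and calcium release. Adcy5 and Adcy6 encode closely related cyclases that calcium inhibits, and they are the forms best known from heart muscle.

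The overexpressed microRNA itself is shown because its seed, the stretch of bases 2 to 8 that pairs with messenger RNA, defines what it can bind. In the RefSeq miRNA table of build GRCm38.p6, 3 of 1679 mature mouse names carried this seed, which is in capitals below. The mature miR-100 lies at chr9:41531437-41531458 on the plus strand, miR-99a at chr16:77598940-77598961 and miR-99b at chr17:17830194-17830215, also on the plus strand.
mmu-miR-100-5p: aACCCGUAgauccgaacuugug
mmu-miR-99a-5p: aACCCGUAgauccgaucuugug
mmu-miR-99b-5p: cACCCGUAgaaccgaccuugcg
All 3 sequences are 22 bases long. Outside the shared seed, miR-99a differed from miR-100 at 1 base and miR-99b at 4 bases. The level of miR-100 and its pairing with the 4 transcripts were not analysed here.

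Across the table the arrays correlated between 0.988 and 0.993, and 31 of 22206 rows (0.140%) had a limma p under 0.05 after Benjamini-Hochberg adjustment over all rows, which is the threshold used throughout. On the first principal component the wild type arrays all had negative scores and the miR-100 arrays all positive ones. Replicate 2 of each group stood apart, at -38.2 in wild type and 30.8 in miR-100. The other wild type arrays lay between -13.0 and -3.49, and the other miR-100 arrays between 8.96 and 13.5. Without wild type replicate 2, 15 rows passed the threshold, and without each other array in turn between 11 and 27 did. The differences of Adcy5 and Adra1b and the adjusted p of Hcn2 without wild type replicate 2 are given below. Markers of ventricular muscle were among the brightest rows, with 8 of 8 measured at percentile 98.5 or above of all row means. Of the atrial markers, Bmp10, Myl7 and Sln lay at percentiles 14.1, 22.0 and 46.6, Myl4 at 67.9, and Nppa, which the ventricle also makes, at 99.7. Whether a transcript differs in amount per cell or in the number of cells that hold it cannot be told apart in tissue RNA.

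Among the 4 measured genes, the signal of Adcy5 was higher in all 4 miR-100 hearts than in any wild type heart, while Adcy6, Adra1b and Adra2c overlapped between the groups. Adcy5 averaged 1.45 times its wild type signal (95% confidence interval 1.11 to 1.88), Adcy6 1.0 times (0.79 to 1.27), Adra1b 0.85 times (0.62 to 1.17) and Adra2c 0.99 times (0.77 to 1.28). None of the 4 passed the adjusted threshold over the table in limma (0 of 4), and 1 of 4, Adcy5, had an unadjusted p under 0.05. Across all rows 7.73% had such a p. Groups that did not overlap were found in 4.54% of all rows, with 2.21% in the higher direction. The plot of log2 signal per array shows the values of each mouse.

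**Figure D1:**
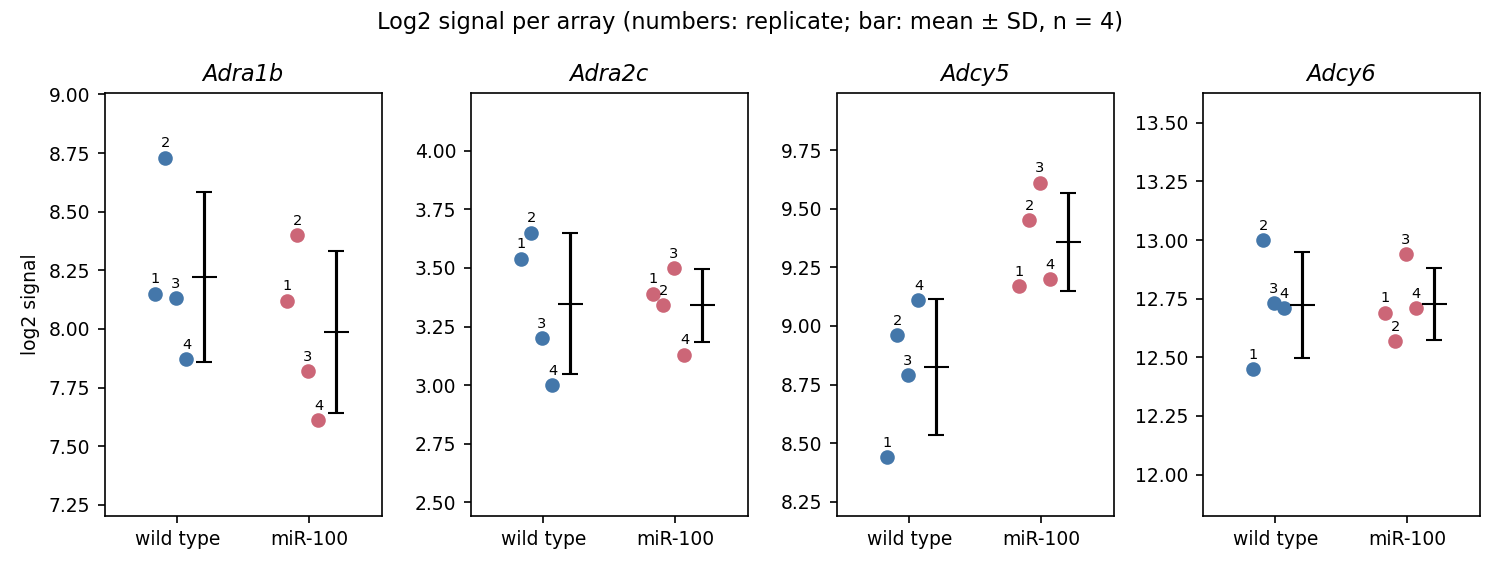
Log2 signal (vertical axis, 1.8 units in each panel) of Adra1b, Adra2c, Adcy5 and Adcy6 on each of the 8 arrays, with the replicate number at each point and the mean ± SD of 4 arrays as a bar. The Adcy5 points of the miR-100 hearts begin at 9.17, above the highest wild type point of 9.11, and the groups overlap in the other panels.

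Adcy5 makes cyclic AMP in response to the stimulatory G protein. Its log2 signals were 8.44, 8.96, 8.79 and 9.11 in wild type replicates 1 to 4, and 9.17, 9.45, 9.61 and 9.20 in miR-100 replicates 1 to 4. The lowest miR-100 value exceeded the highest wild type value by a narrow margin, and wild type replicate 1 was the lowest of all arrays. The means were 8.82 ± 0.29 and 9.36 ± 0.21 (SD, n = 4 each), a difference of 0.53 with a standard error of 0.18. The 95% confidence interval of this difference ran from 0.15 to 0.91. A two-sided exact permutation test over the 70 assignments of arrays gave p = 0.0286, the smallest it can give with 4 against 4, and limma gave an unadjusted p of 0.00939 and an adjusted p of 0.404. Of all rows, 513 (2.31%) had a lower p, and 3.0% had a larger absolute difference. The difference of means exceeded the SD of either group but not the range of the wild type values, and it did not pass once all rows were considered.

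Leaving out each array in turn, the Adcy5 difference had its lowest value, 0.40, when wild type replicate 1 was omitted and its highest, 0.63, when wild type replicate 4 was. Its unadjusted limma p stayed between 0.00477 and 0.0353 in these 8 fits, and the adjusted p was between 0.328 and 0.644. Without wild type replicate 2 the difference was 0.58, and without miR-100 replicate 2, the other array that stood apart, it was 0.50.

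Adcy6 encodes the close relative of Adcy5. Its log2 signals were 12.45, 13.00, 12.73 and 12.71 in the wild type hearts and 12.69, 12.57, 12.94 and 12.71 in the miR-100 hearts. The wild type hearts held both the lowest and the highest array. The means were 12.72 ± 0.22 and 12.73 ± 0.15 (SD, n = 4 each), a difference of 0.005 with a 95% confidence interval of -0.33 to 0.34. The exact permutation test (two-sided) gave p = 1.0 and limma an adjusted p of 0.997.

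Since the cyclases were measured on the same arrays, their signals can be compared within each array. The Adcy5 signal minus the Adcy6 signal was -4.01, -4.04, -3.94 and -3.60 in wild type replicates 1 to 4, and -3.52, -3.12, -3.33 and -3.51 in the miR-100 replicates. Every miR-100 array lay above every wild type array. The shift of this within-array difference was 0.53 (standard error 0.14). Its two-sided exact permutation p was 0.0286, the smallest possible with 4 against 4. After Benjamini-Hochberg adjustment over the 2 pairs compared it was 0.0571, which misses the threshold of 0.05. The adjusted value could be lower only if the other pair also reached 0.0286, so this pair could not pass by its own separation alone. Without any 1 of the 4 wild type arrays the exact permutation p was again 0.0286 before adjustment. Without any 1 of the 4 miR-100 arrays it was 0.0571, although the arrays left still did not overlap. The 2 pairs were the cyclases and the receptors. The size of the within-array difference itself depends on the probes of each row and is no ratio of transcripts, so only its shift between groups is read.

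Adra1b encodes the alpha1B receptor, a Gq-coupled receptor of heart and vessel muscle. Its log2 signals were 8.15, 8.73, 8.13 and 7.87 in wild type hearts and 8.12, 8.40, 7.82 and 7.61 in miR-100 hearts. Wild type replicate 2 was the highest and miR-100 replicate 4 the lowest, with overlap between the groups. The means were 8.22 ± 0.36 and 7.99 ± 0.35 (SD, n = 4 each), a difference of -0.23 with a 95% confidence interval of -0.69 to 0.22. The exact permutation test (two-sided) gave p = 0.343 and limma an adjusted p of 0.872. Without wild type replicate 2 the difference was -0.06, and without miR-100 replicate 2 it was -0.37. The row was annotated with 3 RefSeq transcripts, against 1 for each of the other 3 genes, and they are not told apart in this value.

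Adra2c encodes the alpha2C receptor, which couples to the inhibitory G protein. Its log2 signals were 3.54, 3.65, 3.20 and 3.0 in wild type hearts and 3.39, 3.34, 3.50 and 3.13 in miR-100 hearts. The lowest and the highest of the 8 values were both in wild type mice. The means were 3.35 ± 0.30 and 3.34 ± 0.16 (SD, n = 4 each), a difference of -0.01 with a 95% confidence interval of -0.38 to 0.36. The exact permutation test (two-sided) gave p = 0.943 and limma an adjusted p of 0.996. The row lay among those of genes that are silent in the heart (next paragraph), so its difference is not read as one of the receptor.

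To place the 4 rows, each was set against all row means and against 1091 rows of olfactory receptor genes, a large family that is mostly silent outside the nose. This yardstick was chosen after the values were seen. The olfactory rows had a median of 3.86 and a 95th percentile of 5.05 in mean log2 signal. Adra2c, at a mean of 3.34 over the 8 arrays, lay at percentile 4.89 of all rows and below 943 of the olfactory rows. Adra1b lay at percentile 70.7 with 1 olfactory row above it, Adcy5 at percentile 77.7 and Adcy6 at percentile 94.6 with 0 olfactory rows above either. The order of signals was therefore Adcy6, Adcy5, Adra1b and Adra2c, with gaps larger than the spread between arrays except that the lowest Adcy5 and the highest Adra1b arrays overlapped (8.44 and 8.73). It is an order of array brightness, since probes of different genes bind with different strength and the signals were not set per length, and it does not rank the receptors or cyclases by abundance.

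**Figure D2:**
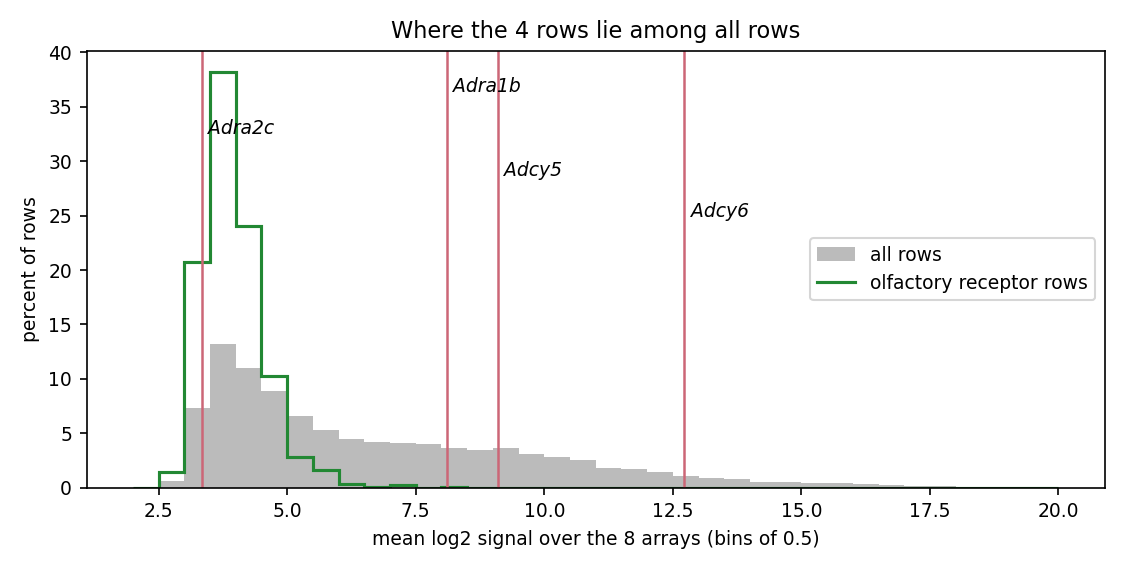
Share of rows (vertical axis, percent) by mean log2 signal over the 8 arrays (horizontal axis, bins of 0.5) for all 22206 rows in grey and for 1091 olfactory receptor rows as a green outline, with vertical lines at the 4 genes. Adra2c lies inside the olfactory distribution, Adcy5 and Adcy6 lie to its right, and Adra1b lies to the right of all but 1 olfactory row.

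The receptors were compared with each other in the same within-array way as the cyclases. Adra1b minus Adra2c was 4.61, 5.08, 4.93 and 4.87 in the wild type hearts and 4.73, 5.06, 4.32 and 4.48 in the miR-100 hearts. The groups overlapped, with miR-100 replicates 3 and 4 the lowest. The shift was -0.22 (standard error 0.19) with a two-sided exact permutation p of 0.286, also 0.286 after adjustment over the 2 pairs. Since the Adra2c row was not above the silent genes, this value is not read as a comparison of the 2 receptors.

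**Figure D3:**
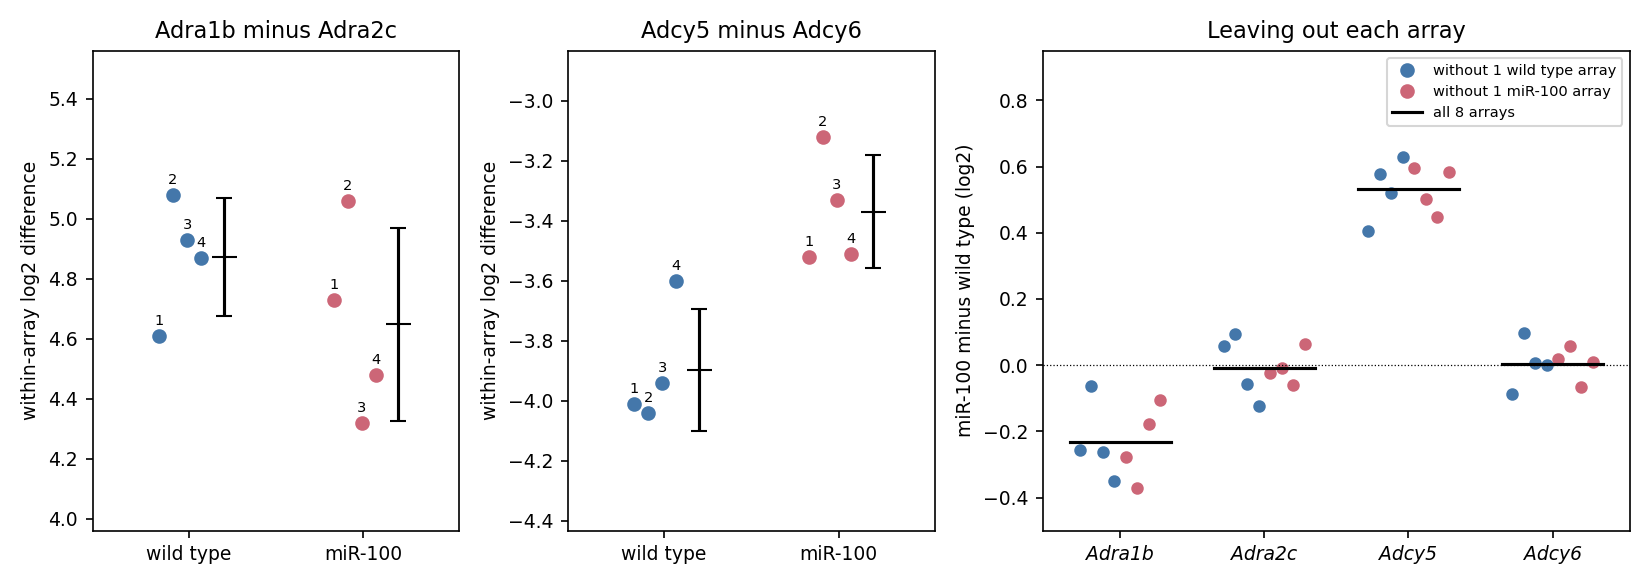
The left and middle panels show the within-array log2 difference of Adra1b minus Adra2c and of Adcy5 minus Adcy6 for each mouse, with replicate numbers and the mean ± SD of 4 arrays. The right panel shows the difference miR-100 minus wild type (log2) with all 8 arrays as a line and without each array as points. Adcy5 stays between 0.40 and 0.63, Adra1b stays below 0, and Adra2c and Adcy6 lie on both sides of 0.

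The mouse has further adenylyl cyclases, and 10 of them had a named row. Of these 10, 0 passed the adjusted threshold in limma and 1, Adcy5, had an unadjusted p under 0.05. Beside Adcy5 and Adcy6, 3 of 8 cyclases had differences above 0 and 5 below, with a median of -0.12, against -0.015 over all rows. This count and median include the dim rows of Adcy2, Adcy3, Adcy8 and Adcy10 (next paragraph) and are not read as ones of the transcripts. Adcy1, a calcium-stimulated form best known from brain, was the other cyclase whose groups did not overlap, in the lower direction. Its log2 signals were 5.81, 5.64, 5.87 and 5.80 in wild type hearts and 5.54, 5.39, 5.54 and 5.51 in miR-100 hearts, a difference of -0.28 (standard error 0.13, limma adjusted p = 0.657). The margin between the lowest wild type and the highest miR-100 array was again small.

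Among the remaining cyclases, Adcy9, a widely expressed form, differed by 0.21 (limma adjusted p = 0.822) and Adcy3 by 0.12. Adcy4 differed by -0.22, Adcy2 by -0.21, Adcy8 by -0.18 and Adcy7 by -0.06. Adcy10, the soluble cyclase that bicarbonate activates, differed by 0.01 with the widest spread, an SD of 0.43 in the miR-100 hearts. Adcy2, Adcy3, Adcy8 and Adcy10 were dim, at percentiles 24.1, 19.4, 6.54 and 34.7 of all row means and below the 95th percentile of the olfactory rows, so their differences are not read as differences of the transcripts. No pairwise test was made between these 8 cyclases and Adcy5.

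**Figure D4:**
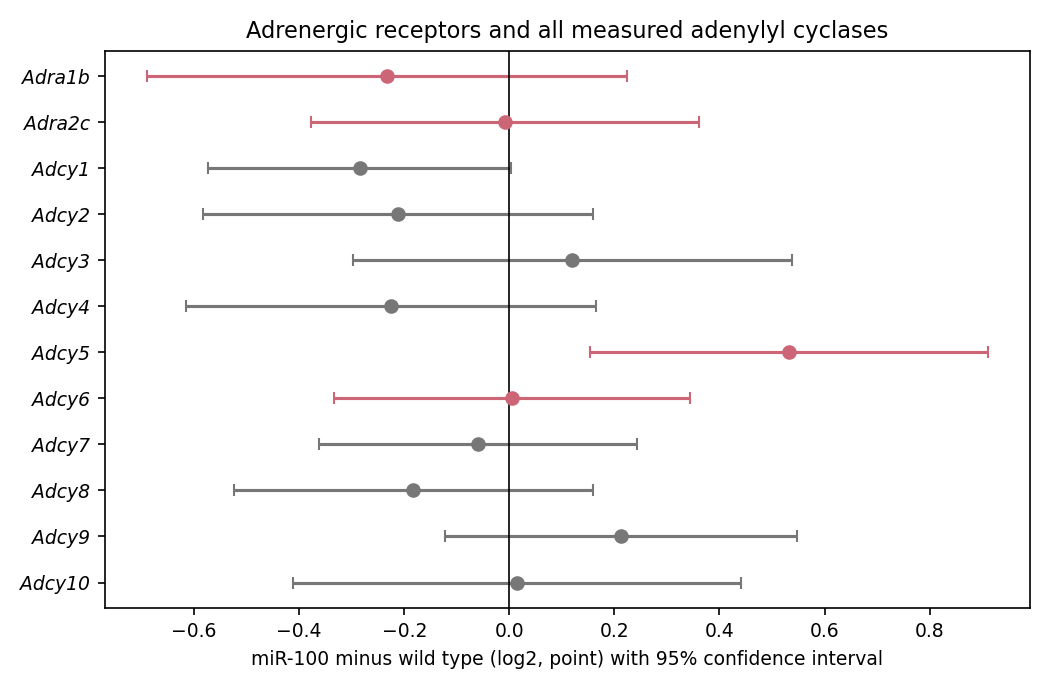
Difference miR-100 minus wild type (horizontal axis, log2) with its 95% confidence interval from limma for the 2 receptors and the 10 cyclases, with the 4 genes asked for in red. The interval of Adcy5, from 0.15 to 0.91, is the one that does not include 0, and the intervals are not adjusted for the number of genes.

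Genes that act before and after the cyclases were read from 12 lists with 151 genes, of which 136 had a named row. Of these 136 genes 1 passed the adjusted threshold, against 0.140% of all rows, and 19 (14.0%) had an unadjusted p under 0.05, against 7.73% of all rows. Of the 19, 12 were higher in miR-100 hearts and 7 lower, where 3.55% and 4.17% of all rows were. The lists were drawn up with results for some of their genes already known, Hcn2 and Kcnq1 among them, so the shares are a description of the lists. Their median difference was 0.06, with 77 genes above 0 and 59 below. These counts include rows below the 95th percentile of the olfactory rows, and Prkar2b, 1 of the 19, is such a row.

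The gene that passed was Hcn2, a pacemaker channel that cyclic AMP regulates by direct binding. Its log2 signals were 6.94, 6.82, 7.43 and 6.75 in wild type hearts and 8.40, 8.06, 7.97 and 8.47 in miR-100 hearts. The groups were well separated, and the difference was 1.24 (standard error 0.18, limma adjusted p = 0.0198). It passed in 3 of the 8 fits without an array and missed the threshold without wild type replicate 1, 2 or 4 (adjusted p = 0.0597, 0.0765 and 0.0559 in limma) and without miR-100 replicate 1 or 4 (0.0793 and 0.0864). In the same list Rapgef3, which encodes the cyclic AMP-activated exchange factor EPAC1, differed by -0.49 (limma adjusted p = 0.503).

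At the step between receptor and cyclase, 20 G protein subunits were measured, with 10 above 0, 10 below and a median of 0.01. Gnaz, Gna14, Gna15 and Gng7 lay below the 95th percentile of the olfactory rows. The count and median of the subunits are therefore not read as ones of the transcripts. Gnao1, the alpha subunit of Go, an inhibitory-class G protein, had log2 signals of 11.13, 10.86, 11.08 and 11.62 in wild type hearts and 12.28, 12.40, 11.71 and 12.28 in miR-100 hearts. The groups did not overlap, and the difference of 0.99 (standard error 0.20) had an adjusted p of 0.0787 in limma. Of the 8 fits that left an array out it passed in 1, without wild type replicate 4 (limma adjusted p = 0.0469). It also passed with all 8 arrays under an intensity trend in the moderation (0.0226). Gnas, the stimulatory alpha subunit, differed by -0.15, Gnaq, the alpha subunit of Gq, by -0.09, and Gng10, a gamma subunit, by -0.36, and none of them passed.

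Of the 10 receptor kinases, arrestins and RGS proteins, which switch receptors and G proteins off, 7 were above 0 and the median was 0.11. Grk3, a receptor kinase, was 7.44, 7.09, 7.33 and 7.56 in wild type hearts and 7.90, 7.97, 7.75 and 7.72 in miR-100 hearts. The groups did not overlap, with a difference of 0.48 (limma adjusted p = 0.368). Grk5, another receptor kinase of heart muscle, also differed by 0.48 but with a wider spread (limma adjusted p = 0.703). Rgs3, which shortens G protein signals, differed by -0.14. Grk2, the beta-adrenergic receptor kinase, and the arrestin Arrb2 were not analysed here.

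Phosphodiesterases break cyclic AMP and cyclic GMP down, and 11 of 15 were above 0 with a median of 0.11. Pde1b and Pde8b lay below the 95th percentile of the olfactory rows, so this count and median are not read as ones of the transcripts. Pde3b differed by 0.59 (limma adjusted p = 0.348) and Pde7b by -0.67 (limma adjusted p = 0.214), each without overlap between groups. Among 18 genes of protein kinase A and its anchors, 13 were above 0 with a median of 0.11. Pkia, an inhibitor protein of the kinase, had log2 signals of 14.90, 14.24, 14.45 and 14.76 in wild type hearts and 13.80, 13.93, 14.08 and 14.03 in miR-100 hearts. Its groups did not overlap, with a difference of -0.63 (limma adjusted p = 0.263). Prkar2b, a regulatory subunit, differed by 0.41 from a dim signal. Prkar2b, Prkar1b and Akap5 lay below the 95th percentile of the olfactory rows. Neither the Prkar2b difference nor the count and median of this list is therefore read as one of the transcripts.

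Of 13 protein kinase A substrates of heart muscle 7 were above 0, and the median was 0.01. Kcnq1, a potassium channel of repolarisation, differed by 0.61 (limma adjusted p = 0.261), and Fxyd1, the regulator of the sodium pump, by -0.12. Among 10 effectors of Gq 4 were above 0, and the median was -0.02. Prkcd, a protein kinase C form, differed by 0.66 (limma adjusted p = 0.351) and Prkd1, protein kinase D1, by -0.61 (limma adjusted p = 0.288).

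Of 10 CREB factors and cyclic AMP-induced genes 6 were above 0, with a median of 0.05, and Crtc3 and Crtc1, coactivators of CREB, differed by 0.34 and -0.17. Of 8 genes of catecholamine handling 5 were below 0, with a median of -0.17, and the amine oxidases Maoa and Maob differed by 0.34 and -0.38. Th, Dbh, Pnmt, Slc6a2 and Slc18a2 in this list lay below the 95th percentile of the olfactory rows. The count and median of the list are therefore not read as ones of the transcripts. Of 11 other receptors listed as coupled to adenylyl cyclase 6 were below 0, with a median of -0.02, and Npy1r, a neuropeptide Y receptor, differed by 0.28. Htr2b, a serotonin receptor, was in this list although it couples mainly to Gq. It differed by -0.42 at percentile 6.52 of all row means, among the silent genes, so this is not read as a difference of the receptor. Ptger2, Ptger3, Vipr1, Vipr2, Hrh2 and Gcgr also lay below the 95th percentile of the olfactory rows, so the count and median of these receptors are not read either. Of 7 caveolins and cavins, which shape the membrane pits where beta receptors and cyclases gather, 4 were above 0 with a median of 0.12, and Cavin2 and Cav3 differed by 0.34 and -0.32. None of the genes named in these 4 lists passed the adjusted threshold.

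**Figure D5:**
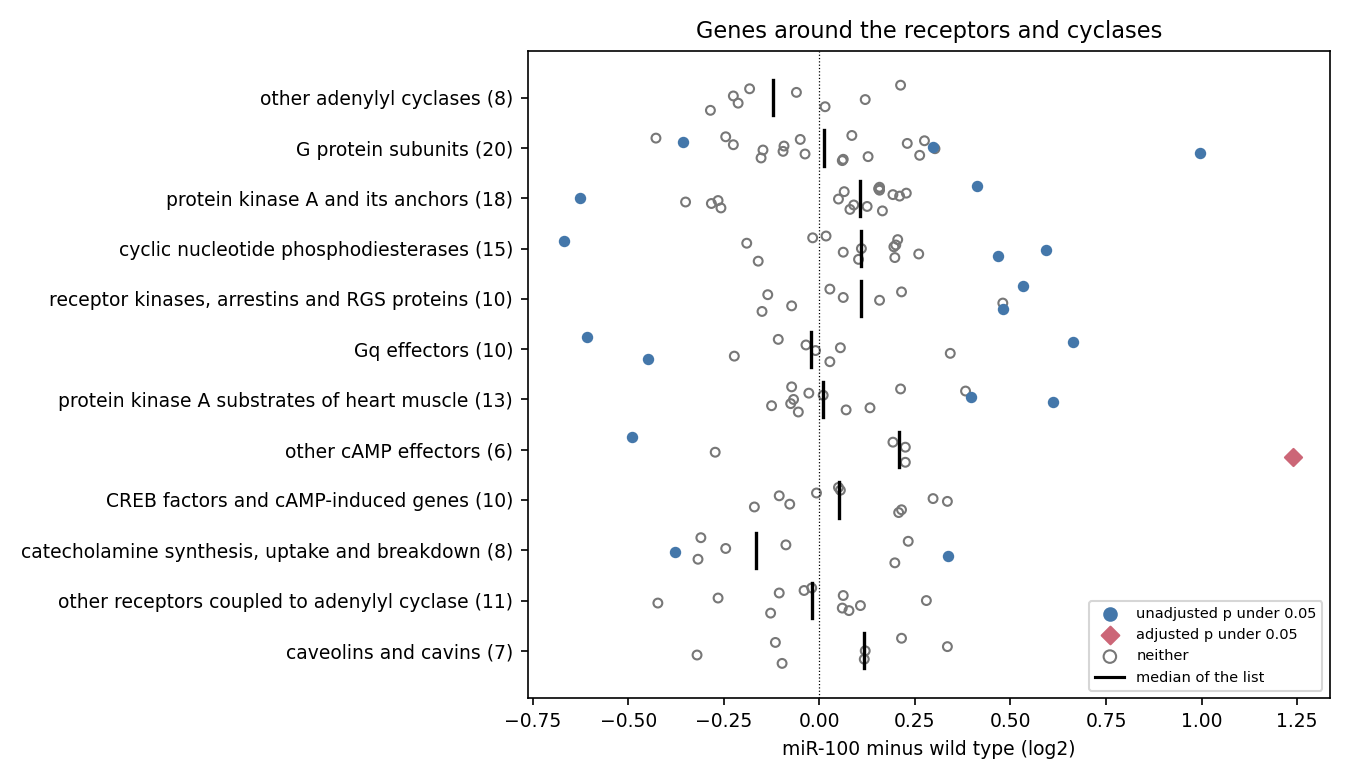
Difference miR-100 minus wild type (horizontal axis, log2) of each measured gene in 12 lists, with the number measured in brackets and the list's median as a black line. Filled blue points have an unadjusted p under 0.05, and the red diamond, Hcn2 at 1.24, is the gene that passed the adjusted threshold.

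Markers of other cells that hold these receptors and cyclases were read beside the results. The 4 measured fat cell markers were all above 0, with mean log2 signals of 3.92 to 4.07 in wild type and 4.09 to 4.50 in miR-100 hearts, and they lay between percentiles 15.0 and 34.9 of all row means. Adipoq, their defining gene, was at 3.56 and 3.98. In smooth muscle, Acta2 differed by 1.11 (limma adjusted p = 0.200), while Myh11, Tagln and Cnn1 differed by -0.06, -0.19 and 0.06, and the 5 markers averaged 8.53 to 8.87 in wild type and 8.47 to 8.97 in miR-100 hearts. The part of these cells in the Adcy5 difference was not tested. The 6 endothelial markers averaged 11.22 to 11.36 and 11.17 to 11.34, the 6 fibroblast markers 9.87 to 10.24 and 9.74 to 10.13, and the 6 sympathetic neuron markers 4.33 to 4.54 and 4.29 to 4.57 in wild type and miR-100 hearts. The groups overlapped for each of these 3 lists and for smooth muscle, and did not for the fat cell list. All measured fat cell and sympathetic neuron markers lay below the 95th percentile of the olfactory rows, so neither list is read as an amount of its cells. Of the atrial markers Nppa differed by 1.04 without overlap (limma adjusted p = 0.0616), Myl4 by -0.26, Myl7 by -0.40, Sln by -0.01 and Bmp10 by 0.09, and the 5 averaged 7.64 to 7.78 in wild type and 7.68 to 7.89 in miR-100 hearts. The 8 ventricular muscle markers averaged 18.58 to 18.66 and 18.59 to 18.64, the 5 pericyte markers 10.37 to 10.45 and 10.30 to 10.50, and the 6 macrophage markers 8.86 to 9.38 and 9.01 to 9.32, also with overlap. Of the ventricular markers, Pln was 19.64 on each of the 4 miR-100 arrays, close to the highest value on any array, 19.93. Whether rows this bright can still show a difference was not tested.

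The rows whose pattern over the 8 arrays was most like each gene were found by Pearson's r among 18593 named rows. For Adcy5 these were Harbi1 and Ttc7b, with r of 0.98 for each. For Adcy6 they were Kmt5c (0.98) and Izumo3 (0.95), for Adra1b Cd300e (0.96) and Olfr1241 (0.95), and for Adra2c Pcp2 (0.97) and Eomes (0.96). For comparison, the median row of the table had a closest partner at r = 0.97, so partners this close were usual with 8 arrays. These values describe the arrays, which share the 2 groups.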

How the data were processed

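The deposited log2 signals of 8 arrays came from Transcriptome Analysis Console 4.0, which the authors ran, per the submitters' processing notes. The sources used here do not state how rows were summarized or normalized, nor the build. Column medians lay between 5.70 and 5.74 and values between 2.29 and 19.93. Precision is limited by the number of arrays. RNA was extracted with TriPure and labelled with biotin through the Affymetrix WT Plus kit, per the labels' protocols.

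The platform annotation gave 1 symbol to 19572 of 22206 rows and none to 2634. Of several rows for a symbol, the row with the highest mean stood for the gene. The 22206 rows entered limma 3.58.1 (R 4.3.3) without transformation, filter or covariate, with Benjamini-Hochberg adjustment over all rows. The fit was also run on simulated data. Differences are miR-100 minus wild type. Those of single rows have moderated standard errors, and those of the within-array pairs have unmoderated ones from the variances of both groups. Exact tests enumerate the assignments of arrays.

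The members, lists and tests were chosen with earlier results of these data known. Named were all members, list genes past the threshold, the higher and the lower gene of smallest p per list, and the 2 rows most like each member. Others (Adcy2 to Adcy8, Adcy10, Gnas, Gnaq, Grk5, markers) were named after their values were seen. Alternatives were an intensity trend, array weights, robust moderation, median centring, quantile normalization, percentile filters (25 and 50), named rows alone, a replicate block and leaving out each array. Sequences are RefSeq's.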

Additional observations from a re-analysis of the deposited data

Results flagged for a closer look

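In groups of 4 arrays, a value was marked when its gap to the nearest other array exceeded Dixon's 95% critical share of the group's range. This was done for 56 groups, those of the 4 genes asked for and of 24 named genes from the lists, and chance marks about 1 group in 20. There were 3 marks and none among Adra1b, Adra2c, Adcy5 and Adcy6. Cav3, the muscle caveolin, was 9.46 in wild type replicate 2 against 9.78 to 9.82 in the other wild type hearts. Htr2b, a serotonin receptor, was 2.80 in miR-100 replicate 2 against 3.32 to 3.42. Maob, an amine oxidase of mitochondria, was 9.46 in miR-100 replicate 4 against 9.16 to 9.21.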

How the results depend on the processing

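None of the 4 genes passed the adjusted threshold under any of the 17 alternatives that were run (15 for Adra2c, which the percentile filters removed). Adcy5 was higher with an unadjusted limma p under 0.05 in all 17, with differences from 0.40 to 0.63 and adjusted p from 0.255 to 0.644. Adra1b stayed between -0.37 and -0.06. The differences of Adra2c and Adcy6 were near 0 and changed sign. Adra2c was 0.0215 with array weights and 0.018 with quantile normalization, and Adcy6 was -0.0039 with quantile normalization. Without single arrays Adra2c ran from -0.123 to 0.0933 and Adcy6 from -0.0858 to 0.0975. The count of rows past the threshold was 31, rose to 65 with an intensity trend, and ran from 11 to 27 without single arrays. The count of list genes past it was 1, rose to 2 (Gnao1 and Hcn2) with an intensity trend, ran from 0 to 1 without single arrays, and was 0 with the replicate block, where Hcn2 had an adjusted p of 0.0643. The cause was not tested. Same-numbered arrays did not deviate together over the whole table (correlations of -0.06 to 0.07 over 4 numbers). This gave no sign that the numbers pair the mice, but it cannot exclude a pairing. With the replicate block the call count over all rows was 21, no gene asked for changed its side of the threshold, and the shift of Adcy5 minus Adcy6 had an exact sign-flip p of 0.125, the smallest that 4 pairs allow. Without single arrays the exact permutation p of this shift was 0.0286 when a wild type array was left out and 0.0571 when a miR-100 array was, with adjusted values from 0.0571 to 0.114.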
